A study of Mus musculus with 2 samples.

Results

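The long-gene group of retinal microglia comprised 9 genes, Csmd3, Plxdc2, Srgap2, Fhit, Maml3, Klf12, Nav2, Nav3 and Hpgd, out of 17683 genes listed for at least 1 of the libraries and 15169 listed for both. The 9 were picked because their transcripts were higher in microglia of the PBS library than in those of the Igfbpl1 library, so that difference is given here as a description and supports nothing. Single-cell RNA sequencing was done on CD45+ cells that flow cytometry sorted out of dissociated retinas; the mice were B6 with microbead-induced glaucoma, in which injected beads raise the pressure of the eye. The PBS group and the Igfbpl1 group are named for the treatment given in the labels. Mice of both groups carried the microbead glaucoma, and the age was 8 to 10 months in both. Each group was 1 library made from 10 pooled mice. No replicate therefore exists, no difference was tested, and every interval below is an exact 95% interval for counting error within these libraries. The values compare these libraries, not the treatments.

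Microglia are the resident macrophages of the central nervous system, including the retina, and their surveying state depends on TGF-beta and Csf1 receptor signalling. Very long genes take long to transcribe, and much of their unspliced RNA stays in the nucleus. Malat1, a long noncoding RNA retained in the nucleus, is a common measure of nuclear RNA, while mitochondrially encoded and ribosomal protein transcripts are cytoplasmic.

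The label of a long-gene group held for 8 of the 9 genes. In the GENCODE M21 annotation of mm10, Fhit spanned 1612 kb (chr14:9550092-11162035, minus strand) and Csmd3 1211 kb (chr15:47580637-48792063, minus strand). Nav3 spanned 775 kb (chr10:109681259-110456204, minus strand) and Nav2 701 kb (chr7:48908716-49610090, plus strand). Maml3 (chr3:51685907-52105076, minus strand), Klf12 (chr14:99870632-100284679, minus strand) and Plxdc2 (chr2:16356304-16755839, plus strand) spanned 419 kb, 414 kb and 399.5 kb, and Srgap2 (chr1:131285251-131527352, minus strand) 242 kb. Hpgd (chr8:56294585-56321043, plus strand) spanned 26.5 kb, close to the median of 22.1 kb over the listed genes with a match, and 55.3% of those genes were shorter. The other 8 were longer than 95.7% or more of them. All 9 are protein-coding, and the exons of the longest transcript covered from 0.0679% of the span for Fhit to 6.36% for Hpgd. Some loci overlap other listed genes: the antisense transcript 4930517O19Rik at Klf12 had 444 UMIs over all cells, and the sense-intronic Gm29488 at Srgap2 had 200. Whether intronic reads entered the counts, and whether strand was used, is not stated in the labels, so Klf12 and Srgap2 values may share reads with these transcripts.

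Promoters were examined because the 9 genes were chosen for a like difference between the libraries while Hpgd is short. RefSeq promoters (build GRCm38.p6, 250 bases before to 50 bases after a transcript start) matched 6 of the 9 genes, with 8 promoters in all; Csmd3, Plxdc2 and Nav3 had no entry. GAGGAA, the core letters of the site bound by the myeloid factor PU.1, was searched on both strands and was in 2 of the 8, against 28.3% of 32851 RefSeq promoters of the same length. TGANTCA (an AP-1 site, in 7.81% of promoters), the MEF2 consensus (3.69%) and CAGACA (a SMAD site, 21.04%) were in none of the 8. The sequences shown are the pair that hold GAGGAA or its reverse complement TTCCTC, in capitals, and a CG-rich pair that holds none. Hpgd (chr8:56294302-56294601, plus strand) had 12 CG dinucleotides and Klf12 (chr14:100149747-100150046, minus strand, inside the GENCODE span of the gene) had 6. Srgap2 (chr1:131527312-131527611, minus strand) had 17 and Maml3 (chr3:52104957-52105256, minus strand) 22, against a median of 7 per promoter. A match describes letters and shows no binding.
Hpgd: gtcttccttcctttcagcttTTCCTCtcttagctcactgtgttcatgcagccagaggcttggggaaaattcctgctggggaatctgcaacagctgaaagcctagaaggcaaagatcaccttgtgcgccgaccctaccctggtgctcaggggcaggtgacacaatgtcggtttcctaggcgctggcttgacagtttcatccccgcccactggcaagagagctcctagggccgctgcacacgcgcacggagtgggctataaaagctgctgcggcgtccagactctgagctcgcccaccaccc
Klf12: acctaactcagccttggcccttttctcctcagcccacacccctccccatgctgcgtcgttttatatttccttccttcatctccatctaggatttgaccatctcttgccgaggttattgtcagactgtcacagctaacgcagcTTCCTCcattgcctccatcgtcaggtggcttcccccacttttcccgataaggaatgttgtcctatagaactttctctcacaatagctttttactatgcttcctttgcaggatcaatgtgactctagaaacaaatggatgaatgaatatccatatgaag
Srgap2: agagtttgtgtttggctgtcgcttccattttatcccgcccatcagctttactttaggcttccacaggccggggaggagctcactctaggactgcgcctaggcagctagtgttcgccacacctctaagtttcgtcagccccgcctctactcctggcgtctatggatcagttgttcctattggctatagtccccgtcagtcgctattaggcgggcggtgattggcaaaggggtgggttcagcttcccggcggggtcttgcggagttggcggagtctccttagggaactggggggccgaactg
Maml3: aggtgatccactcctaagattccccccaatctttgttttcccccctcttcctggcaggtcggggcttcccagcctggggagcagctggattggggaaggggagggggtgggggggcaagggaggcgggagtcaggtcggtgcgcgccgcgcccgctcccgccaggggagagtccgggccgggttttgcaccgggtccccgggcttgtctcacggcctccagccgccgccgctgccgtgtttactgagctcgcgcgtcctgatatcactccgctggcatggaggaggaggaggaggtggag

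Captured transcripts were counted by unique molecular identifiers (UMIs). There were 3795008 UMIs in 1055 cells of the PBS library and 9463631 UMIs in 3330 cells of the Igfbpl1 library, with 0 cell barcodes in common. Cells were assigned to 14 classes by the UMIs of marker genes, none of them among the 9. This gave 789 microglia-like cells in the PBS library (median 3525 UMIs) and 1673 in the Igfbpl1 library (median 2083 UMIs). All 12 microglial markers were detected in the microglia-like cells of both libraries, at a summed 17313 and 11717 CPM, that is, UMI counts with the class total scaled to 1000000. The 16 macrophage or monocyte markers summed to 86.3 CPM (10 detected) and 179 CPM (12 detected), with Cbr2, Lyve1, Ace and Treml4 at 0 UMIs in both. In the Igfbpl1 library these cells also had a lower median share of Malat1 (1.36% against 1.70%) and higher shares of mitochondrially encoded (1.29% against 1.09%), ribosomal protein (12.1% against 10.1%), heat shock (2.13% against 1.11%) and immediate early (2.44% against 1.40%) UMIs. The part of these differences in the values below was not tested.

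In microglia-like cells, all 9 genes were at a lower CPM in the Igfbpl1 library than in the PBS library. Summed over the 9, the level was 11256 CPM (32735 UMIs; interval 11134 to 11378) in PBS cells and 7527 CPM (30873 UMIs; 7443 to 7612) in Igfbpl1 cells, a ratio of 0.669 (0.658 to 0.679). Plxdc2 supplied 31.2% of the summed UMIs in the PBS library and 31.7% in the Igfbpl1 library. Csmd3, a large transmembrane protein with CUB and sushi domains, was at 988 CPM (2874 UMIs) in PBS cells and 468 CPM (1921 UMIs) in Igfbpl1 cells, a ratio of 0.474 (0.447 to 0.502). Plxdc2, a transmembrane protein with a plexin-like domain, was at 3514 and 2388 CPM, a ratio of 0.680 (0.661 to 0.699). Transcripts of both membrane proteins were lower in the Igfbpl1 library, Csmd3 further than Plxdc2, and the counting intervals of their ratios did not meet.

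Cytoskeletal regulators differed less between the libraries than Csmd3 did. Srgap2, a GTPase-activating protein with a membrane-bending F-BAR domain that acts downstream of Slit and Robo, was at 1545 CPM in PBS cells and 1013 CPM in Igfbpl1 cells (ratio 0.655, 0.628 to 0.684). Nav2, a neuron navigator that binds the cytoskeleton, was at 916 and 649 CPM (ratio 0.708, 0.670 to 0.747). Its relative Nav3 was at 2053 and 1832 CPM (ratio 0.892, 0.862 to 0.923), nearest to equal of the 9.

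Nuclear regulators and enzymes completed the group. Maml3, a Mastermind-like coactivator of Notch, was at 753 CPM in PBS cells and 427 CPM in Igfbpl1 cells (ratio 0.566, 0.532 to 0.603). Klf12, a zinc-finger transcriptional repressor, was at 281 and 131 CPM (ratio 0.466, 0.417 to 0.520). Fhit, a nucleotide hydrolase encoded across a common fragile site, was at 290 and 159 CPM (ratio 0.549, 0.495 to 0.608). Hpgd, the dehydrogenase that inactivates prostaglandins, was at 914 and 461 CPM (ratio 0.504, 0.475 to 0.535). The intervals of Klf12, a gene of 414 kb, and Hpgd, of 26.5 kb, overlapped. Both were chosen for this difference, so nothing about length is read from the overlap.

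On the log2 scale with 10 CPM added, 6 of the 9 genes were lower by at least 1.5-fold in the Igfbpl1 library and 0 were higher by that much. Of 3345 measured genes (mean of 50 CPM or more and at least 20 UMIs), 5.62% were lower and 4.19% higher by the same rule, but since this difference chose the genes, nothing is read from the count. Srgap2 was just inside the limit at -0.60 and Plxdc2 just outside it at -0.56. The median log2 ratio was -0.81 over the 9 genes and -0.12 over all measured genes.

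**Figure D1:**
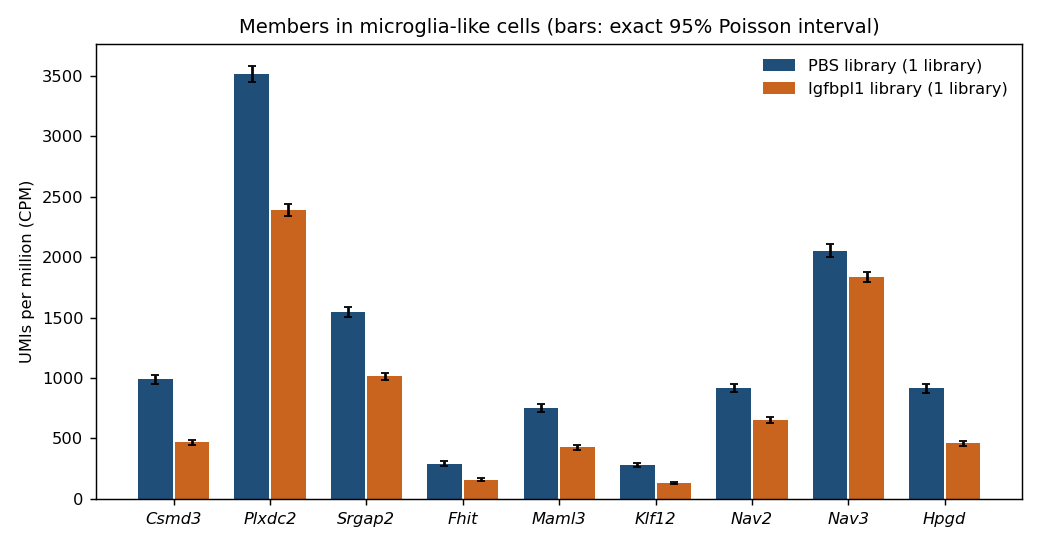
Bars give CPM in microglia-like cells of the PBS library (blue, 789 cells) and the Igfbpl1 library (orange, 1673 cells) for each of the 9 genes, with exact 95% Poisson intervals and 1 library per group. The PBS bar is the taller of each pair, by the largest ratio for Klf12 (281 against 131 CPM) and Csmd3 (988 against 468 CPM) and by the smallest for Nav3 (2053 against 1832 CPM).

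Across cell classes, the summed level of the group was highest in microglia-like cells in both libraries. The other immune cells were the macrophage or monocyte, dendritic, plasmacytoid dendritic, T, NK and B classes pooled (140 PBS and 994 Igfbpl1 cells). Against them, the summed level was 16.5-fold higher in the PBS library (14.7 to 18.5) and 33.9-fold higher in the Igfbpl1 library (31.5 to 36.6). Unassigned cells, left out of the pools, had 2671 CPM (44 PBS cells) and 660 CPM (478 Igfbpl1 cells). With clusters in place of marker UMIs, the log2 fold was 4.02 in the PBS library (4.04 by markers) and 3.76 in the Igfbpl1 library (5.08 by markers). The pools of the libraries differ in makeup, so their folds are not compared. These pools held 79 PBS and 60 Igfbpl1 B-like cells, and 25 and 408 macrophage or monocyte-like cells. Hpgd gave 118 of the 294 UMIs of the 9 genes in the PBS pool and 51 of 699 in the Igfbpl1 pool. At least 4-fold enrichment with 10 CPM added was reached by 8 of the 9 genes in the PBS library, where 9.57% of measured genes reached it, and by 9 of 9 in the Igfbpl1 library, where 8.15% did. Hpgd was the exception in the PBS library at 3.33-fold (2.77 to 4.04). Csmd3 had 0 UMIs in the other immune cells of the PBS library, so its 988 CPM were at least 142-fold higher than the floor of 3 counts over that class. In the Igfbpl1 library Csmd3 was 134-fold higher (74.8 to 269) and Nav3 123-fold higher (92.3 to 167), while Fhit (6.60-fold) and Klf12 (7.24-fold) were much less restricted.

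Fhit, Klf12 and Maml3 (9.21-fold), the 3 genes least enriched in Igfbpl1 microglia-like cells, were detected in several other immune classes. Klf12 was at 105 CPM (35 UMIs; 73.2 to 146) in NK-like cells of the Igfbpl1 library, close to its 131 CPM in microglia-like cells, and at 3.60 CPM (1.32 to 7.83) in macrophage or monocyte-like cells. Maml3 was at 127 CPM (81.6 to 190) in PBS B-like cells and 133 CPM (79.1 to 211) in Igfbpl1 B-like cells, so that in B-like cells no difference between the libraries was detectable at this depth. Fhit was at 72.0 CPM in NK-like and 52.7 CPM in T-like cells of the Igfbpl1 library. Csmd3, Nav2 and Nav3 were each at no more than 22.8 CPM in every other immune class of 20 or more cells in the Igfbpl1 library.

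Neurons and glia of the retina that came through the CD45 sort held UMIs of several of the genes. Csmd3 was at 407 CPM (40 UMIs in 6 of 23 cells; 291 to 555) in bipolar-like cells of the PBS library, where 22 of the 40 UMIs came from 1 cell, and 308 CPM (61 UMIs in 19 of 99 cells; 236 to 396) in those of the Igfbpl1 library. In the 30 amacrine or ganglion-like cells of the Igfbpl1 library, Csmd3 was at 257 CPM, Klf12 at 303 CPM, Nav2 at 358 CPM and Nav3 at 284 CPM. Müller glia or astrocyte-like cells of that library (31 cells) had Nav2 at 645 CPM (463 to 875), which overlapped the 649 CPM of microglia-like cells, and 0 UMIs of Csmd3 or Hpgd, which allows up to 47.2 CPM. Plxdc2 was at 267 CPM in those glia, with 11 of its 17 UMIs in 1 cell. In the 33 rod-like cells of the PBS library, 62 of the 70 UMIs of the 9 genes came from 1 cell, so no rod value is given.

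**Figure D2:**
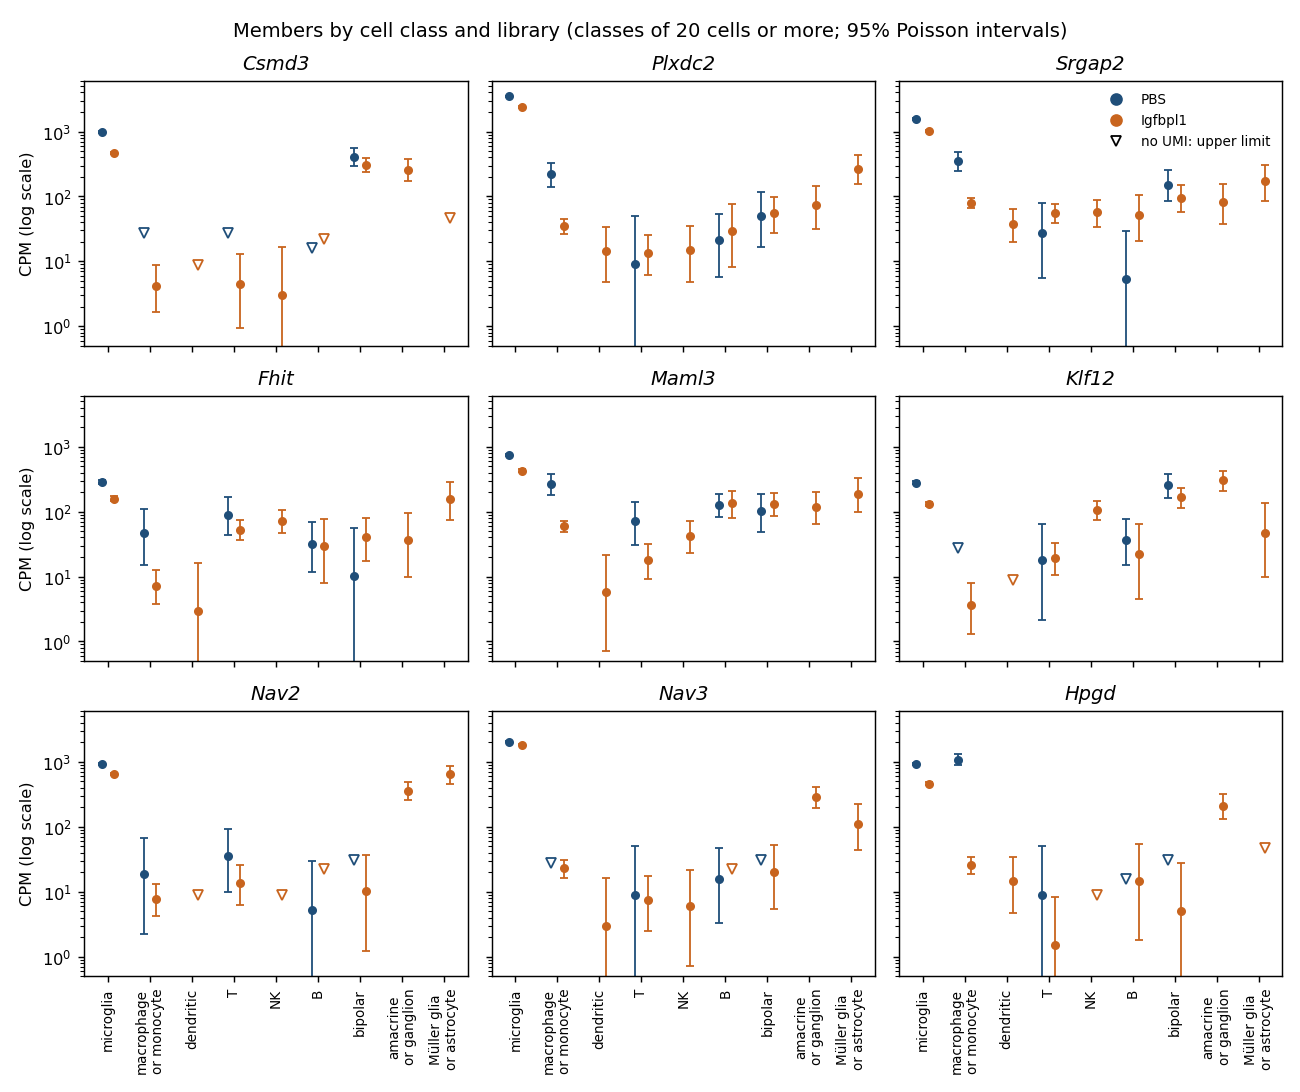
Each panel plots 1 gene, with cell classes of 20 or more cells on the horizontal axis and CPM on a log scale on the vertical axis; filled points carry exact 95% Poisson intervals and open triangles mark the upper limit where no UMI was seen. Microglia-like cells are the top class in both libraries for Csmd3, Plxdc2, Srgap2, Fhit, Maml3, Nav2 and Nav3, for Nav2 by 649 against 645 CPM and for Fhit by 159 against 157 CPM in the Igfbpl1 library, Klf12 reaches its highest point in the amacrine or ganglion-like cells at 303 CPM, and Hpgd in PBS macrophage or monocyte-like cells at 1083 CPM.

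Hpgd set macrophages of the PBS library apart. Macrophage or monocyte-like cells had 117 Hpgd UMIs in 16 of 25 cells in the PBS library (1083 CPM, 896 to 1298) and 43 UMIs in 25 of 408 cells in the Igfbpl1 library (25.8 CPM, 18.7 to 34.7). The classes differ in makeup: 16 of the 25 PBS cells had more UMIs of border macrophage markers than of monocyte markers, against 24 of the 408 Igfbpl1 cells. Among these border-marker cells Hpgd was still at 1517 CPM (99 UMIs in 12 of 16 cells) for PBS and 37.7 CPM (3 UMIs in 2 of 24 cells) for Igfbpl1. Among cells with more monocyte marker UMIs it was at 421 CPM (18 UMIs in 4 of 9 cells) and 25.5 CPM (40 UMIs in 23 of 378 cells). Csmd3, Klf12 and Nav3, in contrast, each had 0 UMIs in the 25 PBS cells, which allows up to 27.8 CPM, against 2053 CPM of Nav3 in PBS microglia-like cells. The split by border and monocyte markers was made after these values were seen.

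Most single microglia held several of the genes at once. After every cell was thinned to 1000 UMIs, the median number of UMIs from the 9 genes was 10 in the PBS library (highest 43) and 7 in the Igfbpl1 library (highest 35). At least 5 of the 9 genes were detected in 57.0% of PBS and 32.6% of Igfbpl1 microglia-like cells, and none in 1.01% and 4.36%. B-like cells, which should lack most of these transcripts, had none in 74.7% and 73.3% of cells, at median depths of 2235 and 1465 UMIs before thinning. Unthinned, Csmd3 had a UMI in 406 of 789 PBS and 582 of 1673 Igfbpl1 microglia-like cells; thinned, the shares were 37.0% and 25.3%. Hpgd was detected in 47.5% and 31.4% of thinned cells and Nav3 in 76.3% and 71.5%.

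Microglial states were defined by UMIs of Ccl2 and Hmox1 (quiet at 0, intermediate at 1, activated at 2 or more) and of interferon-response genes (3 or more). In the PBS library the summed level went from 11953 CPM in 511 quiet cells to 10709 CPM in 128 intermediate, 10100 CPM in 122 activated and 6884 CPM in 28 interferon cells. In the Igfbpl1 library it went from 8677 CPM in 536 quiet cells to 7690 CPM in 251 intermediate, 7072 CPM in 709 activated and 5946 CPM in 177 interferon cells. The order of the 4 states was thus the same in both libraries, and quiet Igfbpl1 cells lay below activated PBS cells. Among quiet cells alone, Csmd3 was at 1074 CPM in PBS cells and 614 CPM in Igfbpl1 cells (ratio 0.572, 0.526 to 0.622), and Hpgd at 947 and 566 CPM (ratio 0.598). In activated cells Hpgd was at 966 and 404 CPM (ratio 0.418), while Nav2, at 694 and 640 CPM (ratio 0.923, 0.813 to 1.05), could not be told from equal.

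In the larger groups of similar cells the summed level was close in the 2 libraries. Microglia-like cells were clustered on their expression without the 9 genes into 9 subclusters, numbered 0 to 8; since clustering used other genes of the same cells (2000 variable genes), the comparison is a description. Subcluster 1 held 57.8% of PBS but 12.6% of Igfbpl1 microglia-like cells. Klf12, Csmd3, Hpgd and Fhit, though left out of the clustering, were among its leading genes, so it is no neutral grouping for the 9. Genes of 300 kb or more other than the 9 made up 5.04% of its UMIs in PBS and 5.18% in Igfbpl1 cells. Its median Malat1 shares were 1.85% and 1.95%. The summed level there was 14109 CPM (13928 to 14292) in 456 PBS cells and 13600 CPM (13260 to 13946) in 210 Igfbpl1 cells. Subcluster 3, led by Apoe, Il1b and Hcar2, held 6.34% and 29.4%, with 7425 CPM in 50 PBS cells and 7315 CPM in 492 Igfbpl1 cells. Subcluster 4, led by Hmox1 and heat shock genes, held 4.82% and 33.1%, with 6325 CPM in 38 PBS cells and 6593 CPM in 553 Igfbpl1 cells. The ratio of the Igfbpl1 over the PBS library was 0.964 (0.937 to 0.992) in subcluster 1, 0.985 (0.939 to 1.03) in subcluster 3 and 1.04 (0.965 to 1.13) in subcluster 4. In subclusters 3 and 4 the libraries could not be told from equal in counting error, and in both libraries subcluster 1 lay far above subclusters 3 and 4.

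When both libraries were given the same mix of the 7 subclusters with at least 20 cells in each (2412 cells), the summed level was 9233 CPM for PBS and 9297 CPM for Igfbpl1, a ratio of 1.01 in place of 0.669. Hpgd had the lowest ratio of the 9 with this mix, at 778 and 584 CPM (ratio 0.751), followed by Maml3 (0.867), Klf12 (0.879) and Csmd3 (0.909). Nav3 was higher in the Igfbpl1 library at 2148 against 1811 CPM (ratio 1.19). With this mix 0 of the 9 genes were lower by 1.5-fold and the median log2 ratio was -0.066. This setting, and the subclusters taken alone, were chosen after the data were seen.

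Some subclusters departed from this. Subcluster 0, led by Ints6, Marcksl1 and Egr1, had the summed level at 8537 CPM in 105 PBS cells and 13111 CPM in 39 Igfbpl1 cells, a ratio of 1.54 (1.44 to 1.64), with Nav3 at 1445 and 3172 CPM. Interferon subcluster 5, led by Cxcl10 and Ifit3, had 8147 CPM in 35 PBS and 6953 CPM in 170 Igfbpl1 cells, and there Csmd3 was at 862 and 445 CPM. Subcluster 2 was led by H2-Aa, Apoe, Ms4a7 and Plac8, which include more macrophage than microglial markers, and was low in both libraries at 4129 CPM in 22 PBS and 3264 CPM in 73 Igfbpl1 cells. Subcluster 7 had 408 CPM in 23 Igfbpl1 cells, whose median Malat1 share was 0% and median ribosomal protein share 30.4%. Without subclusters 2 and 7, 5 of the 9 genes were lower by 1.5-fold and the median log2 ratio was -0.76.

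**Figure D3:**
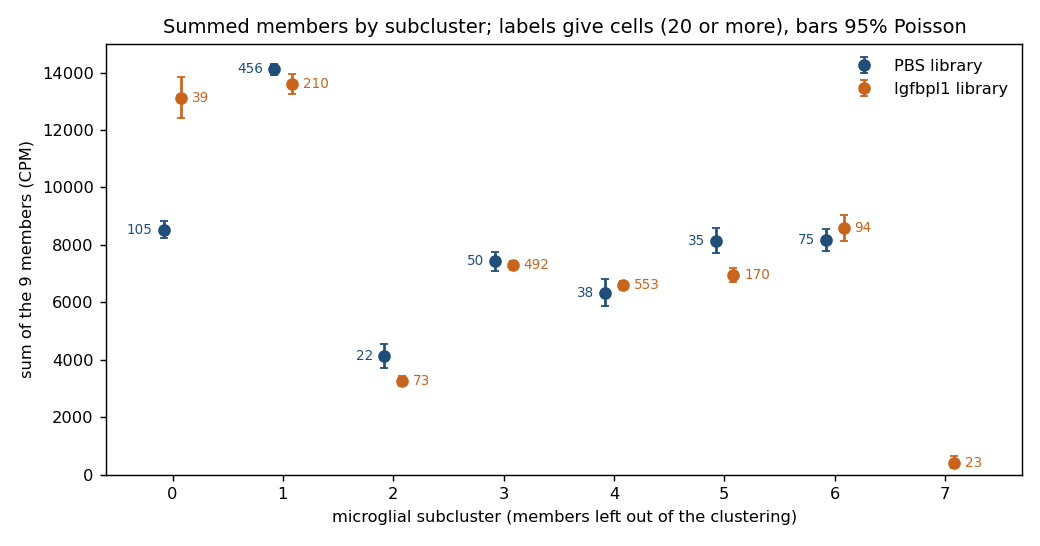
Points give the summed CPM of the 9 genes in each microglial subcluster with 20 or more cells of a library, PBS in blue and Igfbpl1 in orange, with exact 95% Poisson intervals and the number of cells beside each point. The libraries lie together in subclusters 1, 3, 4 and 6, and apart in subcluster 0 (8537 against 13111 CPM).

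Both libraries held cells with Xist UMIs and cells with Y-linked UMIs, in different proportions. Among cells with Xist UMIs and no Y-linked UMI, Csmd3 was at 1451 CPM in 196 PBS cells and 407 CPM in 600 Igfbpl1 cells (ratio 0.281, 0.254 to 0.310), and Fhit at 371 and 86.6 CPM (ratio 0.234, 0.188 to 0.289). Among cells with Y-linked UMIs and no Xist, Csmd3 was at 734 CPM in 368 PBS cells and 515 CPM in 445 Igfbpl1 cells (ratio 0.702, 0.634 to 0.777), and Fhit at 270 and 226 CPM (ratio 0.835, 0.711 to 0.979). The median log2 ratio was -1.27 in the Xist cells, with 8 genes lower by 1.5-fold, and -0.36 in the Y-linked cells, with 1 gene lower. Nav3 was lower in the Igfbpl1 library among Xist cells (ratio 0.712) and higher among Y-linked cells, at 2037 and 2210 CPM (ratio 1.08, 1.03 to 1.14). The contrast between the sets was not tested, and detection of Xist and Y-linked UMIs depends on depth.

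Genomic span moved with the library ratio across all genes. Among measured genes other than the 9, the median log2 ratio was 0.12 for 751 genes under 10 kb and -0.32 for 129 genes of 300 kb or more, and the share lower by 1.5-fold was 2.26% and 17.1%. The Spearman correlation between span and log2 ratio was -0.39 over 3319 genes, a description of genes that share the same pair of libraries. That between span and PBS level, over 3328 genes with the 9 included, was 0.020. Among the 9 genes, Hpgd, the shortest, had a log2 ratio of -0.97 and Nav3, among the longest, -0.16. Since the 9 were chosen by this difference, nothing about length is read from these values. Genes of 300 kb or more other than the 9 made up 4.23% of UMIs in PBS microglia-like cells and 3.46% in Igfbpl1 ones. They made up 17.2% and 15.8% in bipolar-like, 2.48% and 1.91% in B-like, and 2.55% and 0.930% in macrophage or monocyte-like cells. The part of genomic span in the difference between the libraries was not tested.

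**Figure D4:**
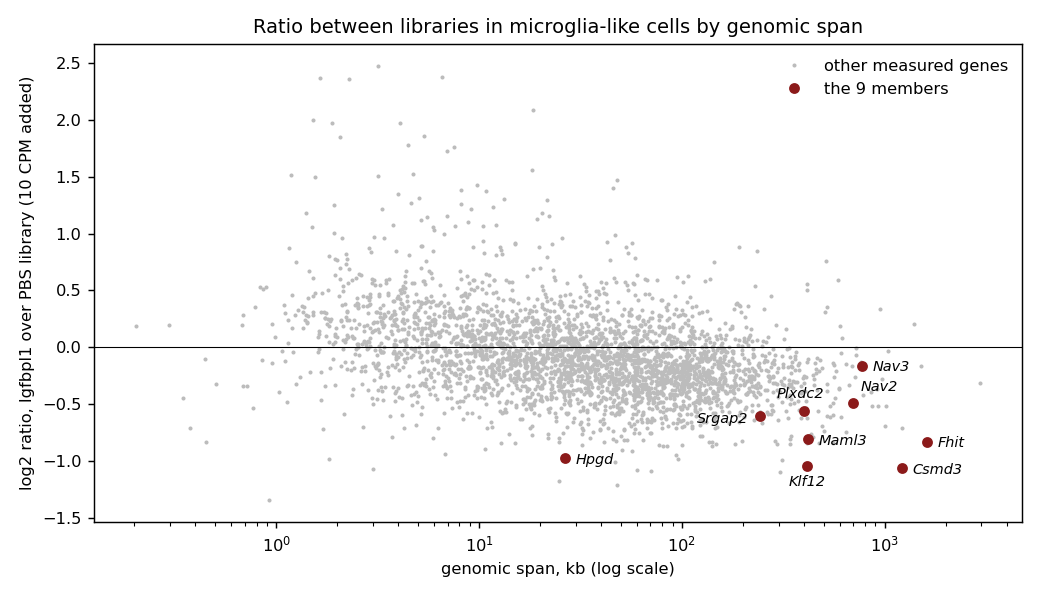
The horizontal axis is genomic span in kb on a log scale and the vertical axis the log2 ratio of the Igfbpl1 over the PBS library in microglia-like cells with 10 CPM added; grey points are other measured genes and red points the 9 genes. All 9 lie below 0, Hpgd at 26.5 kb among genes of ordinary length and the rest at 242 kb or more.

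Nuclear RNA moved with the group inside each library. When the microglia-like cells of the PBS library were ordered by their Malat1 share, the summed level was 8545 CPM in the lowest tertile and 13283 CPM in the highest, a ratio of 1.55. In the Igfbpl1 library it was 5081 and 10003 CPM, a ratio of 1.97. With 10 CPM added, 7 of the 9 genes were higher by 1.5-fold in the highest Malat1 tertile of the PBS library, where 12.9% of measured genes were, and 9 of 9 in that of the Igfbpl1 library, where 25% were. The ratio was largest for Fhit in the PBS library (176 and 373 CPM) and for Klf12 in the Igfbpl1 library (74.2 and 219 CPM). Hpgd, the short gene, was at 737 and 1145 CPM in the PBS library and at 358 and 602 CPM in the Igfbpl1 library. The median log2 ratio of highest over lowest tertile was 0.64 and 0.98 over the 9 genes in the PBS and Igfbpl1 libraries. It was 0.54 and 0.84 for measured genes of 300 kb or more outside the group, and -0.29 and -0.37 for those under 10 kb. Short homeostatic microglial genes such as P2ry12 and Cx3cr1 had medians of -0.15 and 0.086 (16 genes).

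Cytoplasmic RNA went the other way. Over tertiles of the mitochondrially encoded share, 8 of the 9 genes were lower by 1.5-fold in the highest tertile of each library (8.69% of measured genes in the PBS and 12.8% in the Igfbpl1 library). Over tertiles of the ribosomal protein share, 9 of 9 were lower in each (23.2% and 35.2% of measured genes). Csmd3 was at 1401 CPM in the lowest and 630 CPM in the highest ribosomal tertile of the PBS library, and at 698 and 287 CPM in the Igfbpl1 library. These shares and the genes make up a cell's total, so a high share leaves less for the sum of the other genes. The mitochondrial tertile limits common to both libraries were 0.894% and 1.61%. Over each library's own mitochondrial tertiles, the summed level had a highest-over-lowest ratio of 0.645 in PBS and 0.578 in Igfbpl1 cells. Outside the group, the median log2 ratio was 0.19 and 0.20 for measured genes under 10 kb. It was -0.51 and -0.60 for those of 300 kb or more. The part of the shared total in these values was not tested.

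Cells in the same range of Malat1 share still differed between the libraries. With limits common to both libraries, the summed level was 7842 and 5357 CPM in the lowest Malat1 tertile (ratio 0.683), 10619 and 8242 CPM in the middle one (0.776) and 13344 and 10282 CPM in the highest (0.771), against 0.669 without the split. Over common mitochondrial tertiles the ratios ran from 0.688 to 0.744, and over ribosomal tertiles from 0.719 to 0.780. Over immediate early tertiles they were 0.552 in the lowest, 0.740 in the middle and 0.851 in the highest. The relation to Malat1 was also present in 8 of the 9 sets of 60 or more cells from 1 subcluster and library. In subcluster 1 the summed level went from 12278 to 15522 CPM in the PBS library (ratio 1.26, 1.22 to 1.31) and from 13090 to 13407 CPM in the Igfbpl1 library (ratio 1.02, 0.961 to 1.09). In subcluster 4 of the Igfbpl1 library it went from 4978 to 8363 CPM (ratio 1.68). Apart from these values, the part of nuclear RNA in the difference between the libraries was not tested.

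**Figure D5:**
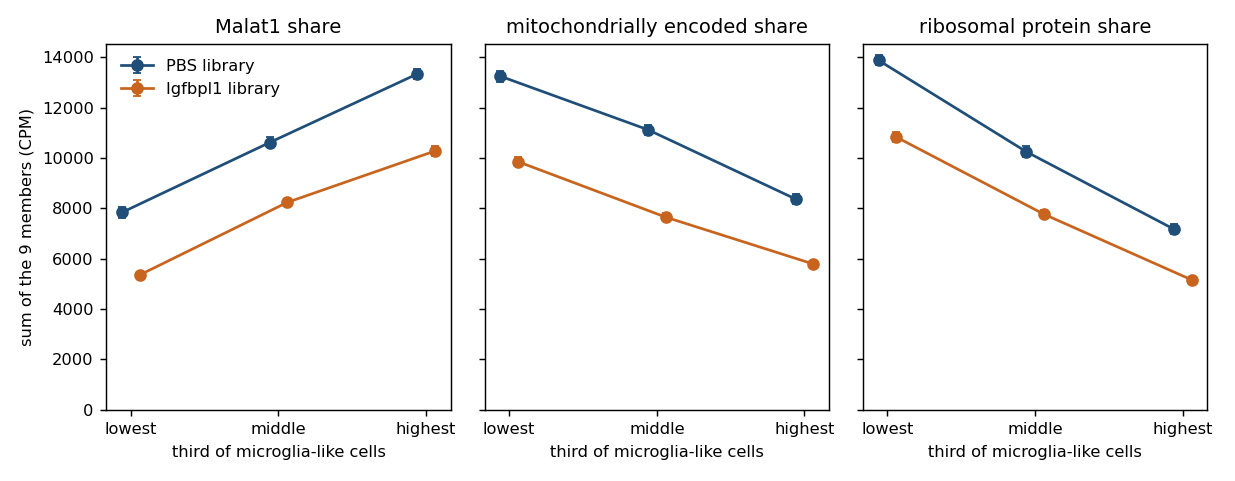
Microglia-like cells of both libraries were divided at common limits into 3 sets of rising Malat1, mitochondrially encoded or ribosomal protein share (horizontal axes), and points give the summed CPM of the 9 genes with exact 95% Poisson intervals, PBS in blue and Igfbpl1 in orange. The level is higher in sets of higher Malat1 share and lower in sets of higher mitochondrial or ribosomal share, and the PBS library lies above the Igfbpl1 library in each set, for example at 13344 against 10282 CPM in the highest Malat1 set.

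Relatives of the 9 genes are given here without the 9 themselves, which were chosen for their difference between the libraries; over all measured genes 5.62% were lower and 4.19% higher. In the prostaglandin and leukotriene list 7 of 24 genes other than Hpgd were measured, and 1 was lower: Ptgs1, the constitutive cyclooxygenase that begins prostaglandin synthesis (454 CPM in the PBS and 264 CPM in the Igfbpl1 library). Ltc4s, which makes leukotriene C, was just outside the limit at 515 and 340 CPM (log2 ratio -0.58), and Hpgds, a prostaglandin D synthase, was at 626 and 531 CPM. In the Notch list 6 of 18 genes other than Maml3 were measured and 0 were lower or higher by 1.5-fold; Maml2 was at 492 and 352 CPM, and Adam10, a protease that cleaves Notch, at 283 and 232 CPM. In the Klf family, 7 of 14 genes other than Klf12 were measured, with 0 lower and 1 higher: Klf2, an early-response factor, at 1103 and 1721 CPM; Klf4 was at 174 and 265 CPM (log2 ratio 0.58), just short of the limit.

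Of the 3 Csmd and Plxdc genes other than Csmd3 and Plxdc2, 1 was measured, Plxdc1, which was lower (74.3 and 44.6 CPM). Nav1, the navigator besides Nav2 and Nav3, was below the level needed to be measured, as were the 8 genes other than Srgap2 on the Slit, Robo and Srgap list. Of 15 genes at fragile sites other than Fhit, 6 were measured, with a median log2 ratio of -0.44. A list of 38 other mostly long microglial genes had 36 measured, of which 9 were lower and 0 higher, with a median log2 ratio of -0.37. On it, St6gal1, a sialyltransferase (117 and 61.2 CPM), Maf, a macrophage transcription factor of 24.9 kb (441 and 244 CPM), and Tgfbr1, the type I TGF-beta receptor of 61.7 kb (1379 and 816 CPM), had the lowest ratios. Lrmda, at 1036 kb, was at 1570 and 1539 CPM (log2 ratio -0.028).

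The genes whose level across 15 profiles (classes of 20 or more cells in each library) was most like the mean of the 9 on the log2 scale were Garnl3 (Pearson's r 0.95), Tubgcp5 (0.94), Tanc2 (0.93), Sall3 (0.90), Adam15 (0.89), Cndp2 (0.89), Mtdh (0.88) and Fhad1 (0.88). The profiles share libraries and include both microglia-like sets, which set the top of each correlation. They also include PBS rod-like cells, in which 62 of the 70 UMIs of the 9 genes came from 1 cell. Of these 8 genes, Tanc2 spans 339 kb and was at 1972 CPM in PBS and 1578 CPM in Igfbpl1 microglia-like cells, whereas Adam15 spans 11.5 kb and Cndp2 18.2 kb. Among the 9 genes, Plxdc2 was most like the mean of the other 8 (r 0.92) and Klf12 least (r 0.57).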

How the data were processed

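Each of the authors' deposited tables holds raw counts of UMIs, with 1 value for a gene in a barcode and no normalisation. The submitters' processing notes name Cell Ranger 3.1 and mm10; no source used here states the filter on cells. No cell was removed here. The 9 genes, the gene lists and the comparisons were chosen with earlier results of these data known.

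A cell went to the class with the most marker UMIs if these were at least 3 and at least 2 times those of the next class; 44 PBS and 478 Igfbpl1 cells stayed unassigned. Of 83 cells near the microglial limit, 54 were called microglia-like. Scrublet marked 6 of 1055 PBS cells (0.569%) and 62 of 3330 Igfbpl1 cells (1.86%) as doublets, which were kept. UMIs were summed per class and library and given as CPM of that total, with exact intervals (Poisson for levels, conditional binomial for ratios, Clopper-Pearson for shares) from scipy 1.17.1; they cover counting error only. Log2 ratios had 10 CPM added. Microglia-like cells were clustered with scanpy 1.11.5 (2000 variable genes, 30 components, 15 neighbours, Leiden resolution 0.8) with the 9 genes left out. Symbols matched GENCODE M21 for 98.4% of 17683 genes. The functions for ratios and intervals were tested on simulated data. These were drawn from the Poisson model that the intervals assume, so they cannot show how the intervals hold for spread between cells. In thinned microglia-like cells, the variance over mean of the summed UMIs was 3.72 in the PBS and 3.51 in the Igfbpl1 library. Alternatives covered the CPM added, filters on low genes, scaling, depth, doublets, class limits and cell subsets. Genes were named by rule: the 9, the 3 highest and 3 most different of each list, and the 8 of most similar profile. A gene that this rule names is not reported here.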

Additional observations from a re-analysis of the deposited data

Results flagged for a closer look

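Several ratios of the Igfbpl1 over the PBS library lay on opposite sides of 1 in 2 sets of cells, with counting intervals that left out 1 in both; none of these differences was tested, since each group is 1 library. Srgap2 had a ratio of 9.78 in B-like cells, on 1 PBS and 7 Igfbpl1 UMIs (1.26 to 441), against 0.655 in microglia-like cells. Nav3 had a ratio of 1.08 among microglia-like cells with Y-linked UMIs and 0.712 among those with Xist UMIs.

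Between microglial subclusters, Csmd3 had a ratio of 1.46 in subcluster 3 and 0.516 in interferon subcluster 5. Its PBS values rest on few cells: 59 UMIs in 9 of 50 cells of subcluster 3, with 17 in 1 cell. In subcluster 5 they were 136 UMIs in 16 of 35 cells, with 27 in 1 cell. The intervals do not cover such spread between cells. Plxdc2 had 1.66 in subcluster 0 and 0.652 in subcluster 2, Srgap2 1.27 and 0.715, and Nav2 2.04 and 0.653. Maml3 had 1.55 in subcluster 0 and 0.537 in subcluster 5. Subcluster 0 holds 39 Igfbpl1 cells and subcluster 2 holds 22 PBS cells. Subcluster 2 is also the one led by macrophage genes.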

How the results depend on the processing

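No paired analysis was possible because each group has 1 library. The median log2 ratio of the 9 genes (-0.81) was -0.70 with 50 CPM added, -0.68 with median-ratio scaling, -0.68 with cells thinned to 1000 UMIs, -0.63 in quiet and -0.72 in activated cells, -1.27 in Xist cells and -0.36 in Y-linked cells. It was -0.082 in subcluster 1, -0.015 in subcluster 3, 0.21 in subcluster 4 and -0.066 with the same mix of subclusters. The count of genes lower by 1.5-fold (6) was 1 in Y-linked cells, 0 in subclusters 1 and 3, 1 in subcluster 4 and 0 with the same mix. In subcluster 3 the log2 ratio was 0.53 for Csmd3, 0.078 for Plxdc2 and 0.079 for Srgap2. There the ratio intervals of Plxdc2 (0.969 to 1.15) and Srgap2 (0.921 to 1.22) included 1. In subcluster 4 the log2 ratio was 0.29 for Csmd3, 0.21 for Plxdc2, 0.72 for Fhit, 0.22 for Maml3, 0.078 for Nav2 and 0.28 for Nav3. Of these, Csmd3, Fhit (10 PBS UMIs; 0.910 to 3.66), Maml3 and Nav2 could not be told from equal. The Spearman correlation between span and ratio (-0.39) was -0.31 in cells of at least 2000 UMIs, -0.25 with a minimum of 10 CPM and -0.21 with none. With the minimum at 10 CPM and with none, 394 and 437 genes were lower by 1.5-fold, in place of 188. These counts come from larger sets of genes, whose shares are not given, so they are not compared with 188. The log2 ratio of the summed level, activated over quiet cells, was -0.24 in the PBS and -0.30 in the Igfbpl1 library by UMI limits. When subclusters took the place of UMI limits it was -0.72 and -0.36. For the highest over the lowest Malat1 tertile, the log2 ratio of the summed level was 0.51 (0.64) and 0.82 (0.98) after thinning. For microglia-like over other immune cells in the Igfbpl1 library it was 3.76 with clusters in place of marker UMIs (5.08 by markers). The cause of these shifts was not tested. Over 20 alternatives each, Hpgd and Klf12 stayed below 0 in all 20, Nav3 in 16.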
